A study of Mus musculus with 6 samples.

Results

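The Notch pathway was examined through 10 genes, the receptors Notch1, Notch2 and Notch3, the ligands Dll1, Jag1 and Jag2, the DNA-binding factor Rbpj and the effector genes Hes1, Hey1 and Heyl. They were chosen by symbol, and all 10 have a row among the 18943 genes of the deposited table. The muscle stem cells (MuSCs) came from WT C57BL/6 mice that were 8 weeks old, were purified by FACS and were kept in culture for 5 days. The control cells received the solvent DMSO, and the treated cells received Endothelin-3 (ET-3) or Neurotensin (NT), peptide ligands of G protein-coupled receptors, each at 100 nM by the sample labels. The methods of the paper give higher doses for MuSC cultures, so the dose is not settled. Each of the 3 groups had 2 RNA-seq libraries here, although the design text of the series speaks of triplicates. The labels do not say whether the libraries of a group came from separate cultures or mice, so the p-values measure only the spread between these libraries, which may be technical.

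Notch signaling passes between cells that touch. A ligand of the Delta or Jagged family on the sending cell pulls on a Notch receptor of its neighbor, the receptor is cut at the membrane, and the freed intracellular part enters the nucleus, where it joins Rbpj and coactivators of the Mastermind family to switch on genes of the HES and HEY families of transcriptional repressors. In skeletal muscle the pathway is known for keeping satellite cells, the resident stem cells, in quiescence and for holding back myogenic differentiation.

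After 5 days with either ligand, the transcripts of Heyl were nearly gone, those of Hey1 and Notch3 were reduced by more than 4-fold, and those of Notch1 were reduced by less. Dll1, Jag1 and Rbpj were lower by smaller amounts. Jag2 was slightly higher under both ligands and Notch2 slightly higher under NT, whereas no difference passed the test for Hes1. Of the 10 genes, 7 were lower and 1 was higher under ET-3, where 33.2% and 30.6% of all tested genes were lower and higher. Under NT 7 were lower and 2 were higher, against 32.5% and 29.7% of all tested genes. The median log2 fold change of the 10 genes was -0.49 under ET-3 and -0.48 under NT, while that of all 13921 tested genes was -0.01 in either comparison.

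These counts rest on limma's test of log2(value + 1), with p-values adjusted over all tested genes by the Benjamini-Hochberg method (BH-adjusted p below) and a threshold of 0.05. In either direction 63.7% of all tested genes passed under ET-3 and 62.2% under NT. With a fold change of at least 2 asked for as well, 4 genes were lower under ET-3 (Notch1, Notch3, Hey1 and Heyl) and 3 under NT (Notch3, Hey1 and Heyl), where 14.9% and 13.2% of all tested genes were. The corresponding shares of genes higher by 2-fold were 6.62% and 7.3%. Notch1 was close to the 2-fold limit under ET-3. Its log2 fold change there was -0.97 with each library scaled to its total and -0.98 without the second ET-3 library. The largest increase among the 10 genes was 1.19-fold, that of Notch2 under NT. Both comparisons use the same DMSO libraries, so the values under ET-3 and NT are not independent of each other.

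A value is the number of reads on the exons of a gene, scaled by a factor of its library and then rounded to a whole number. The library totals lay between 4214458 and 4600575, corresponding to an estimated 3628952 to 5396233 reads on genes, at which a value of 100 carries a counting error of 8.84% to 10.9%. The libraries of the ET-3 pair and of the NT pair were apart by no more than counting noise would give (mean chi-square per gene 0.888 and 0.941, against 1.44 for the DMSO pair), and may not be independent cultures. When the mean of each treated pair stood for 1 sample, Notch1, Notch3, Hey1 and Heyl remained lower under each ligand and the other 6 genes did not pass (limma with Benjamini-Hochberg adjustment), where 29.4% and 25.6% of all tested genes passed in either direction. These 4 genes passed as lower in both comparisons under all 15 alternatives in fitting, scaling and libraries.

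The cells carried markers of the muscle lineage in every group. The 10 listed MuSC markers summed to 8553 to 9265 with DMSO and 7054 to 8157 with the ligands, and Pax7, the transcription factor that defines MuSCs, had values of 857 and 1070 (DMSO), 1754 and 1730 (ET-3) and 1653 and 1599 (NT). Of the 9 MuSC markers tested, 3 were higher and 4 lower under ET-3, and 3 and 5 under NT. Itga7, the most abundant, had values of 2427 and 2651 (DMSO), 2269 and 2199 (ET-3) and 1954 and 1851 (NT) and was lower under both ligands, and Cdh15 and Fgfr4 were 3.47-fold and 2.89-fold lower under ET-3. Calcr, a receptor gene typical of quiescent MuSCs, had values of at most 3 in every library. The 10 listed markers of differentiated muscle cells, among them the myosin genes Myh3 and Myh8, summed to 16159 to 17837 with DMSO and to 334 to 498 with the ligands, and all 10 were lower under both ligands. The 10 listed genes of proliferating cells were all higher. The part of these differences in the Notch results was not tested. In bulk RNA, fewer cells of a type and less RNA per cell cannot be told apart.

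**Figure D1:**
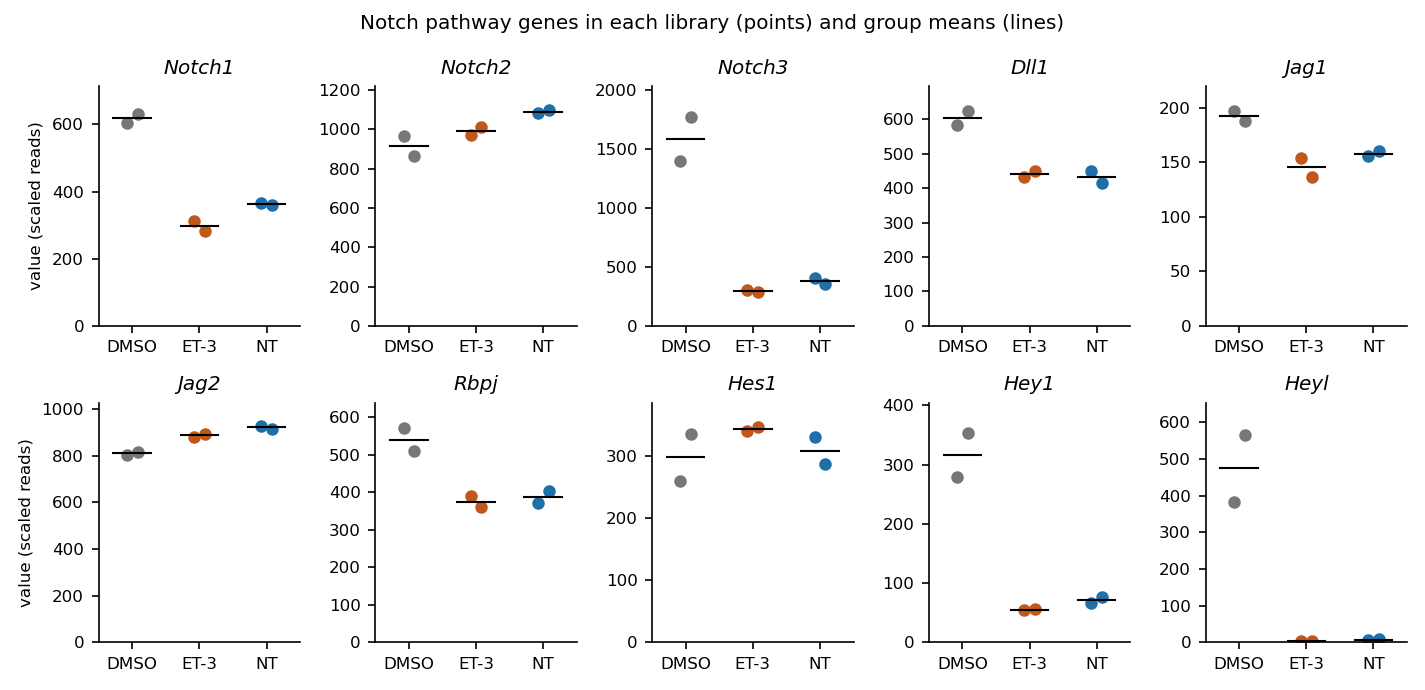
Value (scaled reads, linear axis from 0) of each of the 10 genes in the 6 libraries, with points for libraries and a line for the mean of each group. Heyl lies between 4 and 9 in the 4 treated libraries and at 382 and 566 with DMSO, whereas the Hes1 points of all groups lie between 260 and 347.

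Among the receptors, Notch3 had the highest values with DMSO and showed the largest change. Notch3 (ENSMUSG00000038146, chromosome 17 of GRCm38, 32120820 to 32166852), the receptor also known from smooth muscle of small arteries, had values of 1397 and 1773 (DMSO), 305 and 284 (ET-3) and 409 and 353 (NT). All 4 treated libraries lay far below both DMSO libraries. The change on the log2 scale was -2.41 (ET-3) and -2.05 (NT) (standard error of the fit, SE, 0.11, limma BH-adjusted p = 3.83e-08 and 1.27e-07), or 5.33-fold and 4.13-fold lower. Notch1 (ENSMUSG00000026923, chromosome 2, 26457903 to 26516663), the founding member of the family in mammals, had values of 605 and 632 (DMSO), 312 and 283 (ET-3) and 365 and 360 (NT). Its log2 fold changes were -1.05 with ET-3 and -0.77 with NT (SE 0.06, limma BH-adjusted p = 3.12e-07 and 3.04e-06). Notch2 (ENSMUSG00000027878, chromosome 3, 98013527 to 98150361) did not share this decrease. The values of Notch2 were 967 and 865 (DMSO), 973 and 1010 (ET-3) and 1082 and 1098 (NT), so that all 4 treated libraries lay above both DMSO libraries by small margins. On the log2 scale it changed by 0.12 (ET-3) and 0.25 (NT) (SE 0.06, limma BH-adjusted p = 0.0961 and 0.00292).

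The promoters of Notch3 and Notch2, the receptor genes that moved most and least, and of Rbpj are shown, the last because its window holds the letters searched for. Each run holds the 250 bases before a RefSeq start site, 5′ to 3′ on the strand of the gene (GRCm38.p6), with the letters TGGGAA or its reverse complement TTCCCA, the core of the sequence bound by RBPJ, in capitals.
Notch3, chr17:32166891-32167140, minus strand: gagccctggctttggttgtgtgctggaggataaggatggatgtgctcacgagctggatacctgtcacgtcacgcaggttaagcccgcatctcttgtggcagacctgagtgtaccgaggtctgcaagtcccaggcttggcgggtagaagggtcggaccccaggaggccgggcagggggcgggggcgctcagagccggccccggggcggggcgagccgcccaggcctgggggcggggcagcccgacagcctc
Notch2, chr3:98013288-98013537, plus strand: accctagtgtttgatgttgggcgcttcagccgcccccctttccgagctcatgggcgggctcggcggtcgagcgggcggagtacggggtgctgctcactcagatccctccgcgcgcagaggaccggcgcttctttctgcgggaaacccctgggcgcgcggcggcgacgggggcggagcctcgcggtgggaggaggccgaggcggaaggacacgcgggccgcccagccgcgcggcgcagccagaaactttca
Rbpj, chr5:53590096-53590345, plus strand: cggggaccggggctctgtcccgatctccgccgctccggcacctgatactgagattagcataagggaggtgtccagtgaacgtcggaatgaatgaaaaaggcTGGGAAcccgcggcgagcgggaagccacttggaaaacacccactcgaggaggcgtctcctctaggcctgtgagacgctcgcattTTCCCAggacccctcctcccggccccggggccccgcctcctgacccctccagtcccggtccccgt
The reference table holds 9 promoters of 7 of the genes (all receptors and ligands and Rbpj). The core letters occur in 2 of these 9, both of Rbpj, whose windows overlap, and on either strand in 21.6% of all 32851 promoters of this length. In the Rbpj window shown, the motifs begin 149 and 65 bases before the start site. The 9 promoters had a GC content of 56.0% to 87.2%, where the median of all promoters was 52.4%.

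The ligand genes moved by less than Notch1 and Notch3. Dll1 (ENSMUSG00000014773, chromosome 17, 15367354 to 15376872) encodes a Delta-family ligand, and its values were 583 and 623 (DMSO), 433 and 451 (ET-3) and 451 and 416 (NT). Its log2 fold changes were -0.45 with ET-3 and -0.48 with NT (SE 0.06, limma BH-adjusted p = 0.000110 and 7.42e-05), and no treated library reached the DMSO values. Jag1 (ENSMUSG00000027276, chromosome 2, 137081456 to 137116644), a Jagged-family ligand, had values of 197 and 188 (DMSO), 154 and 137 (ET-3) and 156 and 160 (NT). Its log2 fold changes were -0.40 and -0.28 (SE 0.09, limma BH-adjusted p = 0.00349 and 0.0230). The NT call of Jag1 was lost in 6 of 15 alternatives. With each library scaled to its total it was -0.17 (limma BH-adjusted p = 0.139), and it also missed the threshold without either DMSO library or either NT library. Jag2 (ENSMUSG00000002799, chromosome 12, 112907819 to 112929776), the other Jagged-family gene, moved the opposite way. Its values were 803 and 817 (DMSO), 882 and 893 (ET-3) and 928 and 915 (NT), with log2 fold changes of 0.13 and 0.19 (SE 0.04, limma BH-adjusted p = 0.0203 and 0.00343). Without either ET-3 library the ET-3 value of Jag2 no longer passed (limma BH-adjusted p = 0.0544 and 0.0788).

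Rbpj (ENSMUSG00000039191, chromosome 5, 53466152 to 53657362), through which all Notch receptors reach DNA, had values of 570 and 510 (DMSO), 390 and 360 (ET-3) and 372 and 402 (NT). The 4 treated libraries lay between 360 and 402, below both DMSO libraries. The log2 fold changes of Rbpj were -0.52 with ET-3 and -0.48 with NT (SE 0.07, limma BH-adjusted p = 0.000121 and 0.000240).

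The effector genes did not move as a group. Heyl (ENSMUSG00000032744, chromosome 4, 123233556 to 123249875), a HEY-family repressor that Notch receptors induce in muscle and vessel walls, had values of 382 and 566 (DMSO), 5 and 4 (ET-3) and 6 and 9 (NT). These values correspond to 882 (DMSO), 8 (ET-3) and 19 (NT) reads over the libraries of a group. The mean value was 0.949% of that with DMSO under ET-3 and 1.58% under NT. The change on the log2 scale was -6.41 (ET-3) and -5.80 (NT) (SE 0.29, limma BH-adjusted p = 5.17e-08 and 1.10e-07), or 85.1-fold and 55.7-fold lower. At so few reads the fold depends on the pseudocount, and with a pseudocount of 5 it was 49.5-fold and 37.9-fold.

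Hey1 (ENSMUSG00000040289, chromosome 3, 8663359 to 8667256), a close relative of Heyl, had values of 279 and 353 (DMSO), 54 and 57 (ET-3) and 67 and 77 (NT). Its decrease was close to that of Notch3, with log2 fold changes of -2.48 and -2.11 (SE 0.14, limma BH-adjusted p = 2.41e-07 and 7.92e-07). Hes1 (ENSMUSG00000022528, chromosome 16, 30064384 to 30067796), the most widely used Notch effector gene, which other signaling pathways also control, had values of 260 and 336 (DMSO), 340 and 347 (ET-3) and 331 and 287 (NT). The DMSO libraries differed from each other by more than the group means did, and the NT libraries lay between them. On the log2 scale it changed by 0.22 (ET-3) and 0.06 (NT) (SE 0.11, limma BH-adjusted p = 0.117 and 0.661), a difference that these libraries cannot separate from 0 and that does not show equal levels. Under ET-3 it passed with each library scaled to its total (0.30), with voom weights (0.23) and without the second DMSO library (0.40), at limma BH-adjusted p = 0.0275, 0.0437 and 0.0291.

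**Figure D2:**
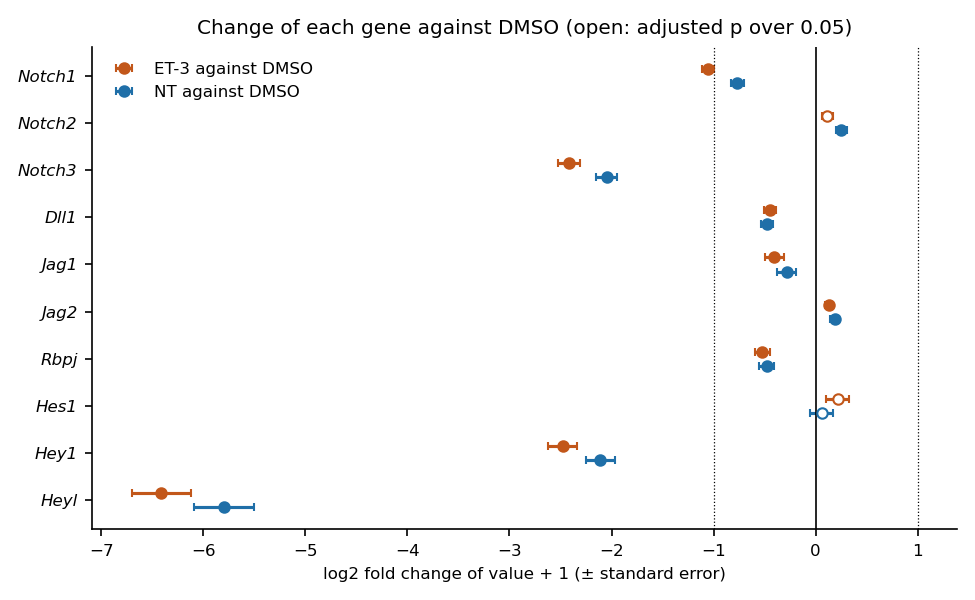
Log2 fold change of value + 1 against DMSO for the 10 genes under ET-3 and NT, with standard errors of the fit as bars, filled points where BH-adjusted p was at most 0.05 and dotted lines at 2-fold. Heyl lies at -6.41 and -5.80, Hey1 and Notch3 lie between -2.48 and -2.05, and the remaining genes lie between -1.05 and 0.25.

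The ligands were compared directly to ask whether NT and ET-3 moved the Notch genes by different amounts. By limma (Benjamini-Hochberg), 1 of the 10 genes was higher under NT than under ET-3 and 0 were lower, where 0.647% of all tested genes were higher and 2.05% lower (2.69% in either direction). With at least 2-fold asked for, 0.079% of all genes passed, 0.0503% higher and 0.0287% lower, and none of the 10 genes did. At an unadjusted p under 0.05, 4 of the 10 genes were higher under NT and 0 were lower, and with voom weights 3 and 0. Over all tested genes, 9.66% were higher and 10.2% lower at that unadjusted p, and 9.99% and 10.7% with voom weights. The gene that passed was Notch1, with a difference of 0.29 (SE 0.06, limma BH-adjusted p = 0.0474). This call was lost in 11 of 15 alternatives, with adjusted p between 0.0170 and 0.712 over them from limma with Benjamini-Hochberg adjustment. Notch3 was 0.37 higher under NT than under ET-3 on the log2 scale, Hey1 0.37 and Heyl 0.61 (limma BH-adjusted p = 0.0958, 0.187 and 0.283), and did not pass.

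Exons of Notch1, Notch2, Notch3 and Dll1 overlap those of other annotated genes over 1482, 541, 488 and 867 bases, and whether strand was used in counting is not settled, so that reads of these stretches may be shared or left out.

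Levels of different genes were set side by side as the value per kilobase of annotated exon. With DMSO, Notch3 was the most abundant of the 10 transcripts by this measure, at 172.7 and 219.2 per kilobase, followed by Hes1 at 127.6 and 164.9 and Dll1 at 138.2 and 147.7. The latter overlap, so their order is not settled, and with the longest annotated transcript as the length Hes1 stood above Notch3. With either ligand Hes1 was the most abundant, at 140.9 to 170.3 per kilobase over the 4 treated libraries, followed by Jag2 at 126.6 to 133.2 and Dll1 at 98.6 to 106.9, the last of which overlapped Notch2 at 90.2 to 101.8. Heyl was the least abundant, at 0.782 to 1.76 per kilobase, after 74.7 and 110.7 with DMSO.

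The make-up of the receptor transcripts changed with the ligands. Notch3 held 56.6% and 63.8% of the summed level of the 3 receptors (DMSO), 25.2% and 23.6% of it (ET-3) and 28.6% and 25.6% (NT). The share of Notch2 was 29.4% and 23.3% (DMSO), 60.2% and 63.0% (ET-3) and 56.8% and 59.6% (NT). The share of Notch1 stayed within 12.9% to 14.8% in all 6 libraries. The summed receptor level per kilobase was 304.9 and 343.8 (DMSO), 149.9 and 148.7 (ET-3) and 176.6 and 170.8 (NT), so that the larger share of Notch2 came with a smaller total. Among the 3 effectors, Hes1 held 44.3% and 43.0% of the summed level (DMSO), 90.5% and 90.3% of it (ET-3) and 88.2% and 84.8% (NT). Among the 3 ligands, Jag2 rose above Dll1 in share, from 40.1% and 39.5% with DMSO to 49.5% to 51.0% over the treated libraries. A share sums to a whole, and these shares were given no test.

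**Figure D3:**
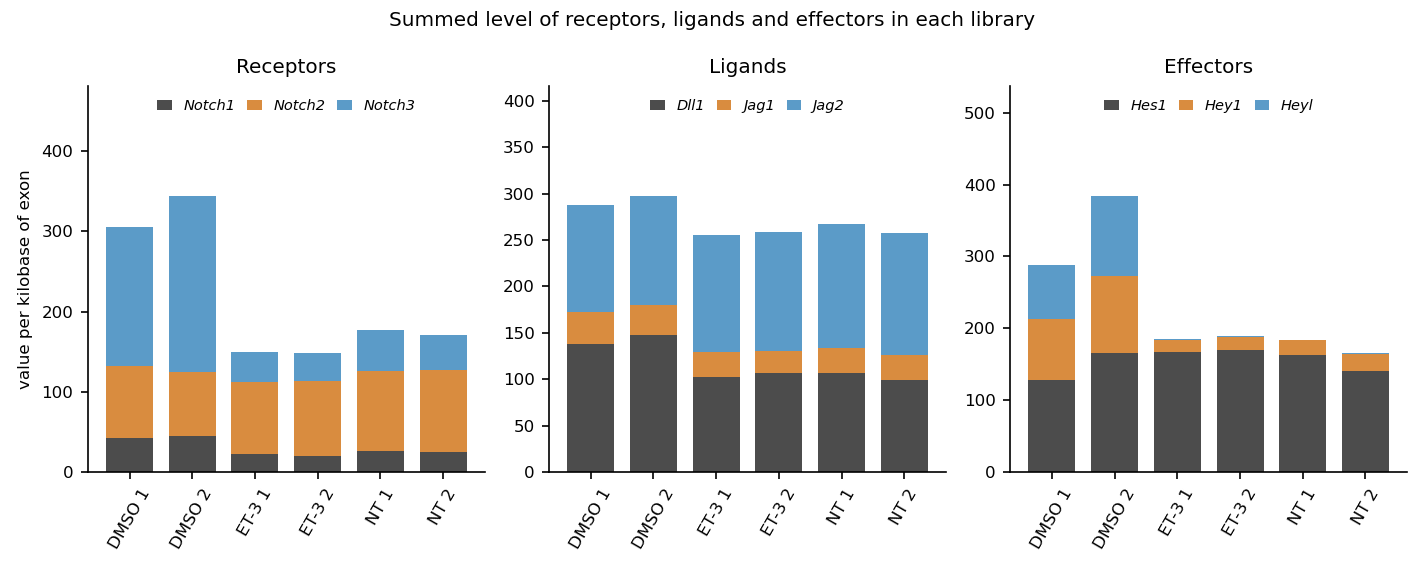
Value per kilobase of exon (linear axis from 0) of the receptors, ligands and effectors in each of the 6 libraries, stacked by gene. The receptor bars are 304.9 and 343.8 high with DMSO and between 148.7 and 176.6 with the ligands, and the Heyl part of the effector bars is at most 1.76 with the ligands.

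Other genes of the pathway were taken from lists ordered by role, 76 genes in all, of which 69 were in the table and 63 could be tested. Under ET-3 16 were higher and 25 lower, and under NT 16 and 21, where 30.6% and 33.2% (ET-3) and 29.7% and 32.5% (NT) of all tested genes were. The counts of the lists that follow stand against the same shares. Their median log2 fold change was -0.05 in either comparison. With each library scaled to its total, 23 were higher and 21 lower under ET-3, and 26 and 17 under NT. Of all 13882 genes tested with that scaling, 5106 were higher and 4065 lower under ET-3, and 5183 and 3698 under NT. The balance of directions thus depends on the scaling, in all genes as in the lists.

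Of the other receptor and ligands, Notch4, Dll3 and Dll4 had values of at most 4 in every library and were not tested. Dner, which encodes a transmembrane protein described as a non-canonical Notch ligand, had values of 379 and 424 (DMSO), 11 and 23 (ET-3) and 26 and 19 (NT). Its log2 fold changes of -4.57 and -4.11 (SE 0.30, limma BH-adjusted p = 6.31e-07 and 1.43e-06) were second in size only to those of Heyl among the tested Notch pathway genes. Dlk1, which encodes a Delta-like protein without the usual receptor-binding domain, was also lower, from 19 and 15 to between 1 and 4.

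Of the 5 genes for E3 ligases that help ligands to be internalized, 3 were lower under each ligand. Neurl1a had values of 1039 and 1103 (DMSO), 174 and 167 (ET-3) and 188 and 166 (NT), with log2 fold changes of -2.64 and -2.59 (SE 0.07, limma BH-adjusted p = 2.75e-09 and 3.88e-09). The log2 fold changes of Mib2 were -0.86 and -0.74, and those of Neurl1b -0.94 and -0.68. Mib2 did not pass under either ligand with treated pairs averaged. Neurl1b lost its call in 4 of 15 alternatives under ET-3 and in 9 under NT, and without the second DMSO library it did not pass under either ligand (limma BH-adjusted p = 0.0712 and 0.258). Mib1, the ligase best known for Notch ligands, had values of 1183 and 1115 with DMSO and 1118 to 1195 with the ligands, and did not pass.

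Of the 7 tested genes of receptor glycosylation, 4 were higher under each ligand, with 2 lower under ET-3 and 1 under NT. The xylosyltransferase genes Gxylt2 and Xxylt1 rose by 1.70 and 0.46 under ET-3 and by 1.76 and 0.72 under NT on the log2 scale. The ET-3 call of Xxylt1 was lost in 3 of 15 alternatives, among them without the second DMSO library (limma BH-adjusted p = 0.129) and without the first ET-3 library (0.103), and neither gene passed under either ligand with treated pairs averaged. Lfng, the Fringe glycosyltransferase that alters which ligands a receptor answers to, went the other way, from 158 and 176 (DMSO) to 63 and 67 (ET-3) and 103 and 87 (NT) (log2 fold changes of -1.35 and -0.81, limma BH-adjusted p = 1.10e-05 and 0.000414). With treated pairs averaged, Lfng remained lower under ET-3 but did not pass under NT. Of the 9 tested genes of receptor cleavage, 3 passed as lower with ET-3 and 1 with NT. Psen2, a presenilin of the gamma-secretase complex, had log2 fold changes of -2.14 and -2.20, while the protease genes Adam10 and Adam17 had log2 fold changes between -0.05 and 0.06 that did not pass.

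The nuclear partners of Rbpj moved in both directions. Of 8 coactivator genes, Kat2a and Maml1 rose by 0.80 and 0.39 under ET-3 and by 0.75 and 0.41 under NT, while the log2 fold changes of Kat2b were -1.76 and -1.62. Of 14 corepressor genes, 6 were higher and 3 lower under ET-3, and 5 and 3 under NT. Within the TLE family, which HES proteins recruit, Tle2 changed by -1.68 and -1.57 and Tle4 by -1.35 and -1.22. In contrast, Tle1 rose by 0.69 and 0.74, and no difference passed for Tle3, the most abundant of them. L3mbtl3, which encodes a chromatin reader that binds RBPJ, rose by 1.11 and 1.12, but did not pass under either ligand with treated pairs averaged. Of 11 tested genes of inhibition and turnover, 6 were lower and 1 was higher under each ligand. Dtx4, a Deltex-family E3 ligase gene, changed by -1.41 and -1.28 and Fbxw7, whose product marks the Notch intracellular part for degradation, by -1.08 and -0.87. Dtx3l, at 14 and 23 with DMSO and 27 to 41 with the ligands, was the gene that was higher, and its call was lost in 9 of 15 alternatives under ET-3 and in 3 under NT. Nrarp, a feedback inhibitor, had values of 14 and 7 with DMSO and 2 to 6 with the ligands, and did not pass.

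Among HES and HEY genes outside the 10, Hes6, whose product favors myogenic differentiation, had values of 1097 and 1250 (DMSO), 889 and 836 (ET-3) and 717 and 668 (NT), with log2 fold changes of -0.44 and -0.76. With treated pairs averaged, Hes6 did not pass under either ligand. Hey2 had values of at most 5. Of 5 tested genes described as Notch targets in MuSCs, 2 were higher and 2 lower under ET-3, and 2 and 3 under NT. The collagen V genes Col5a1 and Col5a3 had log2 fold changes of -2.04 and -3.155 with ET-3 and of -1.68 and -2.66 with NT. In contrast, Pax7 rose by 0.86 and 0.76 and Tenm4 by 0.66 and 0.77. Pax7 did not pass under either ligand with treated pairs averaged. Col5a2, at 2292 and 2344 with DMSO and 1988 to 2269 with the ligands, did not pass under ET-3 (-0.05) and was lower under NT (-0.19).

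**Figure D4:**
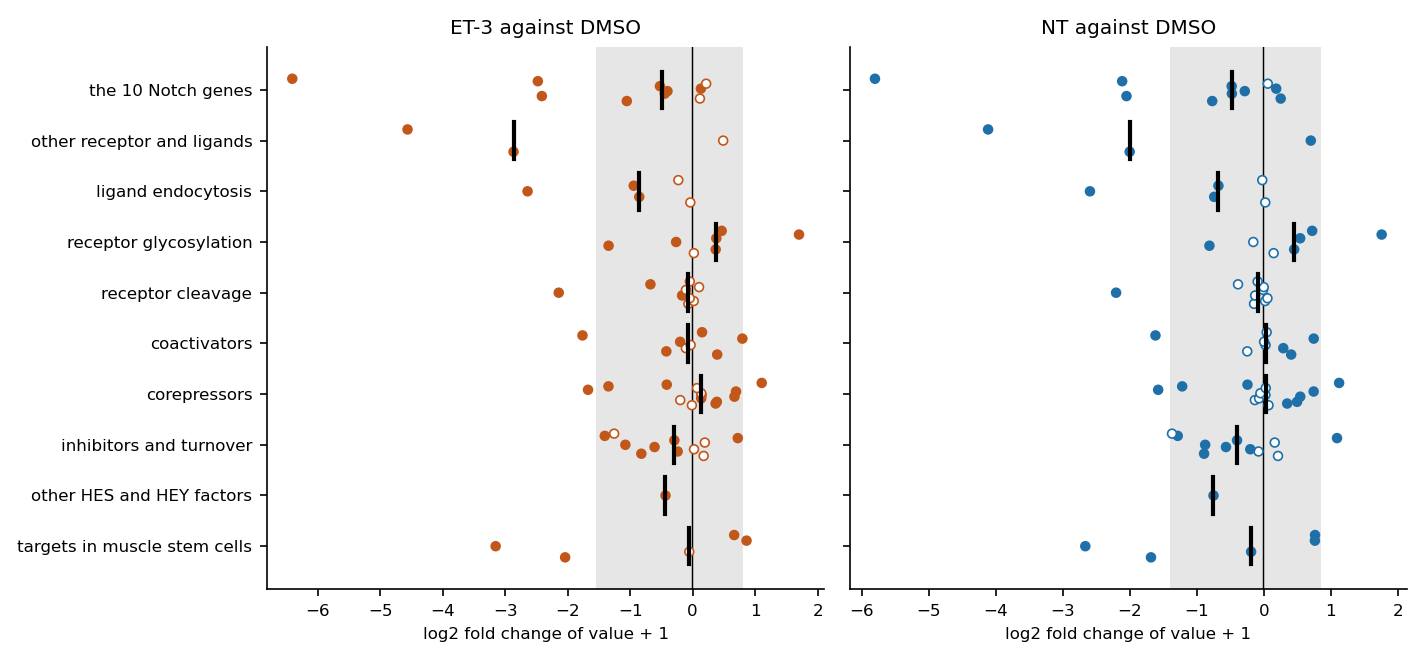
Log2 fold change of value + 1 of the tested genes of each list (points, filled where BH-adjusted p was at most 0.05), with the list median as a bar, the median of all tested genes as a line and the range of the central 80% of all genes in grey. Heyl at -6.41 and -5.80 is the lowest point of each panel.

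Pericytes and smooth muscle cells are known to express Notch3 and Heyl. Their tested markers were lower along with these genes, but by unequal amounts. Of 9 listed markers of pericytes and smooth muscle cells, 6 could be tested and all 6 were lower under both ligands, and the list summed to 2190 to 2262 with DMSO and 526 to 634 with the ligands. Abcc9, a potassium channel regulator that skeletal muscle also expresses, had values of 851 and 835 with DMSO and 0 to 4 with the ligands. The pericyte genes Rgs5, at 117 and 150 with DMSO and 2 to 5 with the ligands, and Pdgfrb, at 227 and 278 with DMSO and 3 to 13 with the ligands, moved the same way. Cspg4 was lower by less, with values of 610 and 612 (DMSO), 433 and 509 (ET-3) and 497 and 508 (NT). On the log2 scale Cspg4 changed by -0.38 (ET-3) and -0.28 (NT), and it made up most of the list sum in the treated libraries. The smooth muscle genes Myh11 and Cnn1 and the pericyte gene Kcnj8 had values of at most 4 in every library, DMSO included. The part of such cells in the values of Notch3 and Heyl was not tested. The endothelial list summed to 17 to 30 with DMSO and 88 to 109 with the ligands. Tek made up 42 to 70 of this sum in the treated libraries. Of the 3 tested endothelial markers, 2 were higher under ET-3 and 3 under NT, and 0 were lower. Kdr had values of 16 and 6 (DMSO), 24 and 25 (ET-3) and 26 and 23 (NT). Cdh5, the cadherin of endothelial cells, had values of at most 5 and was not tested. The fibroadipogenic list summed to 797 to 870 with DMSO and 390 to 479 with the ligands, most of it Gsn (740 and 805 with DMSO and 307 to 402 with the ligands), while Ly6a was higher under both ligands and Pdgfra under NT. The macrophage list summed to 21 to 45 in all libraries, and the Schwann cell list to 1525 to 1586 with DMSO and 120 to 171 with the ligands, most of it Erbb3.

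The genes whose pattern over the 6 libraries was most like that of Heyl, among 10208 genes whose mean value reached 50, were Dtx4 (Pearson's r of log2(value + 1) = 0.9999), Ikbip (0.9996) and Col6a1 (0.9996). In all, 513 genes had r above 0.99 with Heyl. For Notch2, the gene of the 10 with the largest upward change, they were Fam199x (0.997), Tasor2 (0.992) and Trim32 (0.9895), and 2 genes had r above 0.99. The 6 points fall into a DMSO and a treated cluster and share libraries and scaling, so the coefficients describe these libraries and were given no p.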

How the data were processed

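RNA was sequenced from MuSCs in 3 groups of 2 libraries. The authors trimmed reads, aligned them with STAR (build mm10, that is GRCm38) and assigned reads to exons with featureCounts; the submitters' processing notes list Trimmomatic 0.38, STAR 2.7.7a, featureCounts 1.6.5 and DESeq2 1.30.0. The deposited values are a signal per gene, reads multiplied by 1 factor per library and rounded. This scaling is not described in the sources used here and was inferred from how often each whole number occurs. The labels and the methods name different library kits, of which the methods' is stranded. Values as deposited were used as log2(value + 1) with genes of mean value at least 5 (13921 of 18943, 5022 removed).

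All 6 libraries entered 1 limma trend fit (limma 3.58.1, R 4.3.3), with Benjamini-Hochberg adjustment over all tested genes, a threshold of 0.05 and two-sided p-values. The script was tested on simulated data. By Ensembl identifier, 18920 of the 18943 genes matched the GENCODE annotation, which gave exon lengths and overlaps. Gene positions came from the deposited values. Promoter sequences came from RefSeq (GRCm38.p6). The genes and lists were chosen with earlier results of these data known. Named beside the 10 genes were the 3 genes of each pathway list with the largest mean change among those passing in both comparisons with the same sign, markers among the 2 most abundant of each marker list, and the 3 genes most like Heyl and Notch2. Mib1, Adam10, Adam17, Nrarp, Col5a2, Tenm4, Calcr, Cdh5, Cdh15, Fgfr4, Tle1 and Tle3 were named after their values were seen. So were Pdgfra, Rgs5, Pdgfrb, Myh11, Cnn1, Kcnj8, Myod1, Actc1, Acta1 and genes of low value. Alternatives changed the scaling, pseudocount, filter, fit, length, call rule and libraries.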

Additional observations from a re-analysis of the deposited data

Results flagged for a closer look

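The effects of NT and ET-3 differed by limma's test of the difference itself (Benjamini-Hochberg adjustment) for 9 of the genes on the pathway and marker lists. Notch1 was 0.29 higher under NT than under ET-3 on the log2 scale (adjusted p = 0.0474). Hes6 had a difference of -0.32 (adjusted p = 0.0438), being lower under NT. Col5a1 and Col5a3 were higher under NT by 0.36 and 0.49 (adjusted p = 0.0420 and 0.0424). Among the markers, Pdgfrb and Actc1 were higher under NT by 1.47 and 1.77 (adjusted p = 0.0379 for each), at values of at most 13 in the treated libraries. Myod1, Acta1 and Itga7 had differences of -0.38, -0.67 and -0.23 (adjusted p = 0.0379, 0.0379 and 0.0499). In each of the 9 genes both NT libraries lay on the same side of both ET-3 libraries, and 2.69% of all tested genes passed this comparison. Of the whole table, 0 genes passed this comparison without the filter on low values, with the 2 groups fitted alone or with the replicate number as a block. Without any 1 of the 6 libraries, 0 genes of the whole table passed it (1455 to 2902 at an unadjusted p under 0.05).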

How the results depend on the processing

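Of 450 values of the 10 genes under alternatives, 411 kept their direction and side of the threshold, 27 no longer passed, 6 newly passed and 6 changed sign; of 660 values of named pathway genes, 620 kept both and 40 no longer passed. The number of the 10 genes higher under ET-3 was 3 with each library scaled to its total, 2 with upper-quartile scaling, 2 with voom weights, 0 with each treated pair averaged, 0 with at least 2-fold asked for, and 0 to 2 with 1 library left out; those lower were 4 with pairs averaged, 4 at 2-fold, and 7 without any 1 library. Under NT those higher were 0 with pairs averaged and 0 at 2-fold (2 without any 1 library), and those lower were 4, 3 and 6 to 7. Of the pathway lists, 5 genes were higher and 14 lower under ET-3 with pairs averaged, 2 and 12 at 2-fold, and 12 to 15 and 20 to 24 with 1 library left out. Under NT 3 were higher and 10 lower at 2-fold, where 7.3% and 13.2% of all tested genes were, and 26 were higher with library totals. Fewer list genes passed under either ligand with pairs averaged or with 1 library left out, as did fewer of all tested genes. Library totals raised the median of all genes under NT from -0.01 to 0.10 and the split of all genes from 4257 higher and 4616 lower to 5106 and 4065 under ET-3, and from 4131 and 4528 to 5183 and 3698 under NT. Between NT and ET-3, 0 of the 10 genes were higher with a pseudocount of 0.5, without the filter, with the 2 groups fitted alone, with pairs averaged, at 2-fold, and without any 1 library (0 to 0).

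With the replicate number as a block, 0 of the 10 genes passed between NT and ET-3 (limma Benjamini-Hochberg-adjusted p = 0.0754 for Notch1). Samples of the same number did not deviate together (correlations of -0.008, -0.07 and -0.02). The ET-3 and NT pairs were apart by no more than counting noise would give. These correlations therefore cannot show whether the numbers pair the libraries.

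Hes1 under NT ranged from -0.12 to 0.24 with 1 library left out, and was -0.12 without the first DMSO library and -0.04 without the first NT library. Between NT and ET-3, Dll1 ranged from -0.087 to 0.029 and Rbpj from -0.012 to 0.10, both changing sign without the second ET-3 (0.00049 and -0.012) or the second NT library (0.029 and -0.010). With the longest transcript as length, Notch3 held 22.6% of the receptor level under ET-3. Notch2 under ET-3 passed with library totals, upper-quartile scaling and without the first DMSO library. The cause of these changes was not tested. The quasi-likelihood test of edgeR was not run, since rounding merges neighboring read numbers where the factor is below 1. Where 1 library was left out, the lone sample of its group was assumed to vary like the other groups.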
